A study of Mus musculus with 4 samples.

Results

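Endothelial and angiogenic genes were followed in the mouse retina after knockdown of miR-124, as a set of 10 genes picked by symbol out of 48897 genes in the deposited count table. The set held 3 junction and adhesion genes of the endothelium (Cldn5, Pecam1, Cdh5), 4 receptor genes (Kdr, Flt1, Tek, Tie1), 2 genes for secreted growth factors (Vegfa, Angpt2) and Plvap, a gene of fenestrated and immature vessels. The rule for picking them used no measured value. All 10 were found in the table and all 10 passed the filter on low counts.

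Vessels of the mouse retina form after birth. Endothelial tip cells migrate outward from the optic nerve over a bed of astrocytes, which secrete VEGF-A where oxygen is low, and the surface network later sprouts into the deeper layers. VEGF-A acts through its signalling receptor VEGFR2, while VEGFR1 holds the ligand back. The angiopoietins act on the receptor Tie2 and set how stable the new vessels are.

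The 4 RNA-Seq libraries came from retinas of C57BL/6 mice (C57BL/6J in the study's methods) of wild-type genotype, collected at postnatal day 9. The anti-miR-124 group (2 libraries) was made of left eyes, which had received 0.6 nmol of a miR-124-3p antagomir in 1 μl by intravitreal injection at postnatal day 3. An antagomir is a modified antisense oligonucleotide that binds a microRNA and blocks it. The NC group (2 libraries) was made of right eyes injected with the same volume and concentration of a scrambled control, so that eye side and treatment cannot be told apart. Every group had thus been injected, and no library came from an untouched eye. By the study's methods, 12 to 15 retinas were mixed per group, from at least 2 litters. The methods also place antagomir and control in opposite eyes of the same mice, so the groups were not separate sets of animals. Library columns that shared a number were treated as pair A and pair B, and the labels did not say which number was which replicate. Whether the pools of a pair shared mice was not stated. The main fit did not use the pairs, and a fit with them as a block was an alternative. The libraries are called NC-A and anti-A in pair A, and NC-B and anti-B in pair B. The p-values measure the spread between these pools, not between animals.

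The libraries held 16317239 to 18726963 counts over 26606 to 27164 genes. NC-A stood apart from the other libraries, as 19 lens genes made up 6.50% of its transcripts on the TPM scale, where counts are divided by gene length and scaled to one total per library, against 0.0131% to 0.0184% elsewhere. Retina genes, such as those of photoreceptors, summed to 7962 to 9018 TPM in the libraries. Of the 6 members taken as markers of endothelium, every one was above 1 TPM in all 4 libraries. These were Cldn5, Pecam1, Cdh5, Flt1, Tek and Tie1, and they summed to 94.0 TPM in NC-A and 87.4 TPM in NC-B, against 89.4 TPM in anti-A and 81.5 TPM in anti-B. Both NC sums were above the anti-miR-124 sum of their own pair, but the groups overlapped. In a whole retina, fewer endothelial cells and less RNA per endothelial cell cannot be told apart, and the part of other cells in these sums was not tested.

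Promoter sequences were at hand for 6 of the 10 members, from RefSeq on the build GRCm38.p6, covering 250 bases before to 50 bases after the RefSeq start. The Kdr window lies inside the span of Kdr in the count table (chr5:75933265-75979074), so it is not at the start of that span. The promoters of Kdr, Flt1, Tie1 and Cldn5 are shown here, as endothelium expresses these genes. Kdr and Cldn5 were higher in level than Flt1 and Tie1, which were close to each other. These promoters are printed 5′ to 3′ on the coding strand. Capitals mark GGAA, the core of ETS factor motifs, and TTCC, the same letters on the other strand. ETS factors are known regulators of endothelial genes.
Kdr (chr5:75978406-75978705, minus strand): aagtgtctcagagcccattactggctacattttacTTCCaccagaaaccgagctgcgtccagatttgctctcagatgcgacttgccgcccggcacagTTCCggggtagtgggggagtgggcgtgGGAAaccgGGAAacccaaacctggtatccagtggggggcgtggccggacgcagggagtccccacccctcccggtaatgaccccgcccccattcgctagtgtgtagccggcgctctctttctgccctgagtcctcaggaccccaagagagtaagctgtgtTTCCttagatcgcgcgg
Flt1 (chr5:147725962-147726261, minus strand): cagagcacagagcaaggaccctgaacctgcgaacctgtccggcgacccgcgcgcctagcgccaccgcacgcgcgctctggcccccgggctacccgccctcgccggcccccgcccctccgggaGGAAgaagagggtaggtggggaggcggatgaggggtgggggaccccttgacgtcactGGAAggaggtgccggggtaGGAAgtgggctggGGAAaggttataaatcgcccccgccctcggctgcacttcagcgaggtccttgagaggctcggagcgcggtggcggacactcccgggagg
Tie1 (chr4:118489800-118490099, minus strand): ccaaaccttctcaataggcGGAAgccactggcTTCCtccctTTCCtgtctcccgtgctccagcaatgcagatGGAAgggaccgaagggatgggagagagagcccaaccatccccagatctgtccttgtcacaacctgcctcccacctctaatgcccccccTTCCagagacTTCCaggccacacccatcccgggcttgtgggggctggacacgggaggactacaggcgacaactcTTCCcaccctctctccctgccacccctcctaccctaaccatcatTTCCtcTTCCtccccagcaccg
Cldn5 (chr16:18776597-18776896, plus strand): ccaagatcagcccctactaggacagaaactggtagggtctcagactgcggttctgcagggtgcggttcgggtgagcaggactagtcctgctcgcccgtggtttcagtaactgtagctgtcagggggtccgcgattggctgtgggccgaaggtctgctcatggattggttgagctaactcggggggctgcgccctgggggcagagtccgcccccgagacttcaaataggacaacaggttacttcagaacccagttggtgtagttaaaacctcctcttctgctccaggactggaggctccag

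Over both strands, the Tie1 promoter held 9 matches to GGAA, the Kdr promoter 5, the Flt1 promoter 4 and the Tek promoter 2. The Cldn5 promoter held 0. Vegfa had a pair of promoters in the table, with 6 matches in one and 3 in the other. Of 32851 mouse promoters of the same length, 96.0% held at least 1 match, with a median of 3, and 1.59% held 9 or more, so the count in Tie1 was at the upper end. The counts in Kdr and Flt1 were below the 90th percentile, which was 6. Promoters with 0 matches, as in Cldn5, made up 4.02%. The letters ACGTG, a form of the core of the hypoxia response element, were also searched with CACGT on the other strand. The form GCGTG was not searched. ACGTG matched once, in the Vegfa promoter with 3 GGAA matches, and 19.6% of all promoters held it. That Vegfa window (chr17:46025114-46025413) lies inside the span of the gene in the count table. A match describes these letters only, and binding was not measured.

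Levels differed widely among the members when they were compared per length, as TPM. Kdr was the highest with a mean of 196 TPM over the 4 libraries, and Vegfa followed with 105. Cldn5 had 38.3 TPM, Angpt2 16.0 and Cdh5 13.7. Then came Pecam1 with 10.7, Flt1 with 10.4, Tie1 with 9.86, Tek with 5.12 and Plvap with 3.52 TPM. The ranges over the libraries overlapped for the neighbours Angpt2 and Cdh5, Pecam1 and Flt1, and Flt1 and Tie1, and for no other neighbours in the order. The level of Kdr was 13.1 to 15.4 times that of Cdh5 in the same library. Neural cells of the developing retina are also known to make Kdr, so its level in whole retina is not one of endothelium alone.

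**Figure D1:**
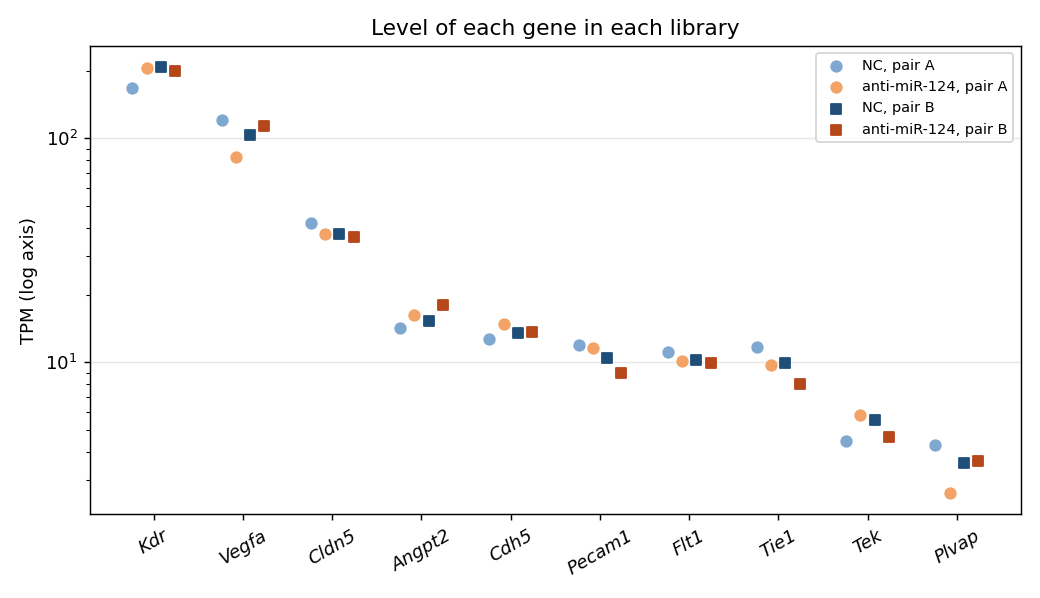
Levels of the 10 members in each of the 4 libraries, in TPM on a log axis, with the genes in order of their mean level and each library with its own mark. Kdr stands at 168 to 208 TPM and Plvap at 2.62 to 4.26 TPM. On this scale the groups do not overlap for Cdh5 and Angpt2 (higher after knockdown) and for Cldn5, Flt1 and Tie1 (lower). Of all genes tested, 20.8% were higher and 9.27% were lower without overlap on the TPM scale.

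The comparison of the anti-miR-124 group with the NC group asked which genes changed when miR-124 was knocked down. No member passed the test. By edgeR's quasi-likelihood test over 17766 genes, 0 of 10 members had an adjusted p below 0.05, against 0% of all genes tested, and 0 of 10 had an unadjusted p below 0.05, against 3.91% of all genes tested (396 higher and 298 lower). DESeq2 called 0 of 10 members, against 0.203% of all genes tested, and limma on log2 TPM called 0 of 10, against 0.0619%. The lowest unadjusted p among the members was 0.112, for Tie1. The fitted change was above 0 for 4 members and below 0 for 6, and their median log2 fold change was -0.16, where that of all genes tested was 0.0007. Without NC-A the members' median was -0.018. The data also limit how large a change could be, since the 95% interval of the change lay within 2-fold in either direction for 9 of the 10 members, Plvap being the exception.

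**Figure D2:**
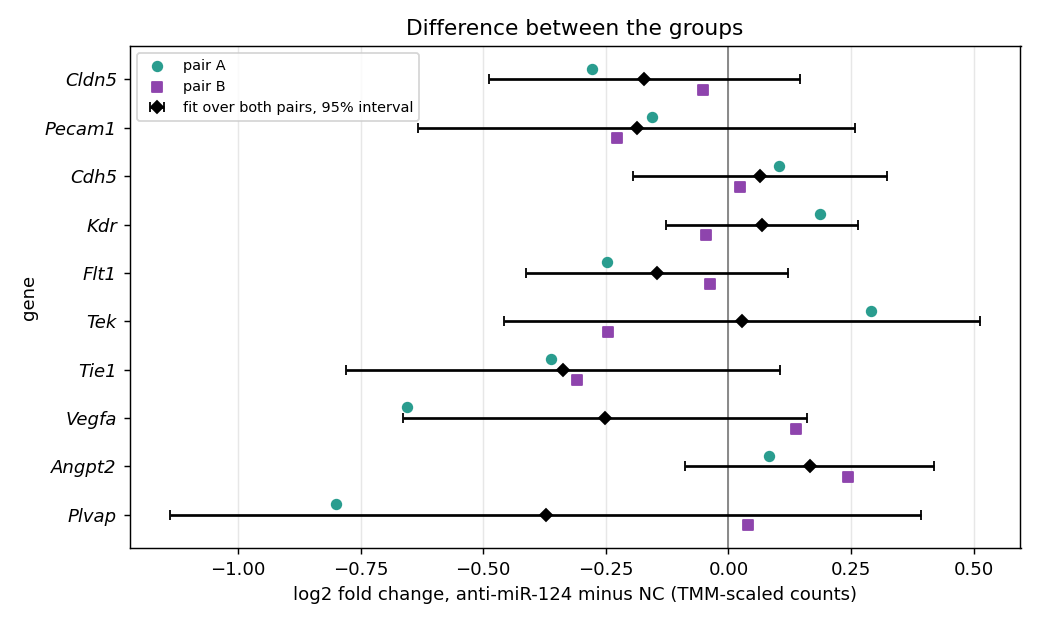
Log2 fold change of each member, anti-miR-124 against NC, from edgeR with its 95% interval (bars), and the log2 ratio within pair A and pair B (separate points), with 0 marked as no change. Every interval crosses 0, and the ratios of Vegfa (-0.66 and 0.14) and Plvap (-0.80 and 0.04) differ the most between the pairs.

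Among the junction and adhesion genes, Cldn5 encodes the main claudin of the blood-retina barrier (chr16:18776847-18778262). It had 316 counts in NC-A, 276 in anti-A, 289 in NC-B and 291 in anti-B, which is 42.1, 37.3, 37.6 and 36.2 TPM in the same order. Once scaled by TMM, the usual scaling factor of edgeR, NC-A was the highest and anti-A lay within the range of the NC group, so that the groups overlapped. Cldn5 had a log2 fold change of -0.17 (SE 0.13, adjusted p = 0.989), and the fold had a 95% interval of 0.713 to 1.11. Without NC-A its log2 fold change was -0.018, and without NC-B it was -0.31.

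Pecam1 encodes the adhesion molecule CD31 (chr11:106654213-106750623). It had 247 counts in NC-A and 235 in anti-A, with 222 in NC-B and 198 in anti-B. Its level was 12.0 and 11.6 TPM in pair A, then 10.5 and 8.95 TPM in pair B. The anti-miR-124 library was lower in both pairs, with log2 ratios of -0.16 and -0.23, but pair A was higher than pair B, and the groups overlapped. Pecam1 had a log2 fold change of -0.19 (SE 0.19, adjusted p = 0.989).

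Cdh5 encodes VE-cadherin, the cadherin of endothelial junctions (chr8:104101613-104144504). It had 274 counts in NC-A and 312 in anti-A, and 297 in NC-B and 315 in anti-B. This is 12.8 and 14.8 TPM, and 13.5 and 13.7 TPM. NC-A and NC-B were close to each other and anti-A was the highest, with log2 ratios of 0.10 and 0.02, and the groups overlapped on the scaled counts. The log2 fold change of Cdh5 was 0.06 (SE 0.11, adjusted p = 0.989), with a fold interval of 0.873 to 1.25.

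Of the receptor genes, Kdr encodes VEGFR2 (chr5:75933265-75979074) and had the most counts of all members, so that counting error was smallest for it. It had 4876 counts in NC-A and 5883 in anti-A, and 6184 in NC-B and 6255 in anti-B. Its level was 168 TPM in NC-A and 201 to 208 TPM in the other libraries. The single low library was thus the one that also held the lens genes. The log2 fold change of Kdr was 0.07 (SE 0.08, adjusted p = 0.989), the fold interval was 0.915 to 1.20, and the log2 ratios were 0.19 in pair A and -0.05 in pair B. With the lens genes left out of the fit the log2 fold change of Kdr was 0.075, and without NC-A it was -0.017.

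Flt1 encodes VEGFR1 (chr5:147562196-147726005). Its counts were 421 in NC-A, 376 in anti-A, 397 in NC-B and 404 in anti-B, or 11.2, 10.1, 10.3 and 9.99 TPM. NC-A was the highest for Flt1 and the lowest for Kdr. The TPM ratio of Kdr to Flt1 was 15.04 in that library and 20.1 to 20.3 in the other libraries. The log2 fold change of Flt1 was -0.15 (SE 0.11, adjusted p = 0.989), and the TMM-scaled counts of the groups overlapped. It was -0.016 without NC-A and -0.27 without NC-B.

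Tek encodes Tie2, the receptor of the angiopoietins (chr4:94739289-94874976), and had 111 counts in NC-A, 144 in anti-A, 142 in NC-B and 125 in anti-B. Its level was 4.44 and 5.85 TPM, then 5.54 and 4.66 TPM. The pairs moved in opposite directions, with log2 ratios of 0.29 and -0.25, and the groups overlapped. Tek had a log2 fold change of 0.03 (SE 0.20, adjusted p = 0.997).

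Tie1 encodes an orphan receptor that pairs with Tie2 (chr4:118471191-118489849). Its counts were 240 in NC-A, 198 in anti-A, 210 in NC-B and 177 in anti-B, or 11.7, 9.78, 9.97 and 8.03 TPM. On the TMM scale it was the single member whose anti-miR-124 libraries both lay below both NC libraries. On the TPM scale, where the median log2 ratio of all genes in pair A is 0.10, this also held for Cldn5 and Flt1. The margin was thin on the TMM scale, as the level was 11.60 CPM (counts scaled to a common library size) in the higher anti-miR-124 library and 11.63 CPM in the lower NC library. Of all genes tested, 16.8% were lower after knockdown with no overlap, so 1 of 10 members is not above the background. The log2 ratios of Tie1 were -0.36 and -0.31 and its log2 fold change was -0.34 (SE 0.18, unadjusted p = 0.112, adjusted p = 0.989). The fold interval reached from 0.583 to 1.07. Leaving out NC-A gave -0.15 and leaving out NC-B gave -0.51 on the log2 scale. With the size factors of DESeq2, with the lens genes left out or with no filter on low counts, the groups overlapped for Tie1 as well. The TPM ratio of Tie1 to Tek was 2.63 in NC-A and 1.67 to 1.80 in the other libraries.

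Of the growth factor genes, Vegfa encodes VEGF-A, which drives sprouting (chr17:46016993-46032377). It had 2672 counts in NC-A and 1797 in anti-A, and 2347 in NC-B and 2697 in anti-B. Its level was 121 and 82.5 TPM in pair A, then 104 and 114 TPM in pair B. NC-A was the highest and anti-A the lowest library, and the libraries of pair B lay between them in the opposite order. Pair A had a log2 ratio of -0.66 against 0.14 in pair B, and the log2 fold change of Vegfa was -0.25 (SE 0.17, adjusted p = 0.989). Left without NC-A, the log2 fold change was -0.06, and left without anti-A it was -0.05. It was -0.42 without NC-B, and -0.49 without anti-B.

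Angpt2 encodes angiopoietin-2, a Tie2 ligand made by tip cells and destabilised vessels (chr8:18690263-18741562). It had 270 counts in NC-A, 303 in anti-A, 296 in NC-B and 366 in anti-B. Its level was 14.3, 16.3, 15.3 and 18.1 TPM in that order. Both anti-miR-124 libraries were above both NC libraries, and 16.5% of all genes tested did the same. This held for 1 of 10 members, Angpt2, and under every other scaling and filter that was tried. The log2 ratios were 0.08 and 0.24, and the log2 fold change of Angpt2 was 0.17 (SE 0.11, adjusted p = 0.989) with a fold interval of 0.940 to 1.34. With 2 libraries against 2, an exact two-sided permutation test of a single value cannot go below p = 0.333.

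Plvap encodes the protein of fenestral diaphragms, which is lost as the retinal barrier matures (chr8:71497753-71511804). It had the fewest counts, with 48 in NC-A, 29 in anti-A, 41 in NC-B and 44 in anti-B, or 4.26, 2.62, 3.56 and 3.65 TPM. Anti-A was the low library and the groups overlapped, with a log2 ratio of -0.80 against 0.04 in pair B. The counting error alone was 18.6% of its lowest count. Plvap had a log2 fold change of -0.37 (SE 0.32, adjusted p = 0.989), and a change to 0.454-fold or to 1.31-fold lay at the ends of its interval.

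Hypoxia is the usual inducer of Vegfa, and the other hypoxia-responsive genes were given beside it. Of 16 such genes that were tested, which included enzymes of glycolysis (Ldha, Eno1, Hk2, Pgk1) and Bnip3, a mitophagy gene, 16 were lower in anti-A than in NC-A, where 51.8% of all genes tested were lower. In pair B, 13 of the 16 were higher, against 50.6% of all genes tested. Like Vegfa, 11 of the 16 were highest in NC-A and lowest in anti-A, against 9.70% of all genes tested. This likeness was chosen after the values were seen, and it describes pair A, not the treatment. In pair A the list had a median log2 ratio of -0.38, against 0.15 in pair B, and the median of the fit was -0.14 (0.05 without NC-A). Over both pairs 0 of the 16 genes passed the adjusted test, while Car9 had too few counts to be tested.

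**Figure D3:**
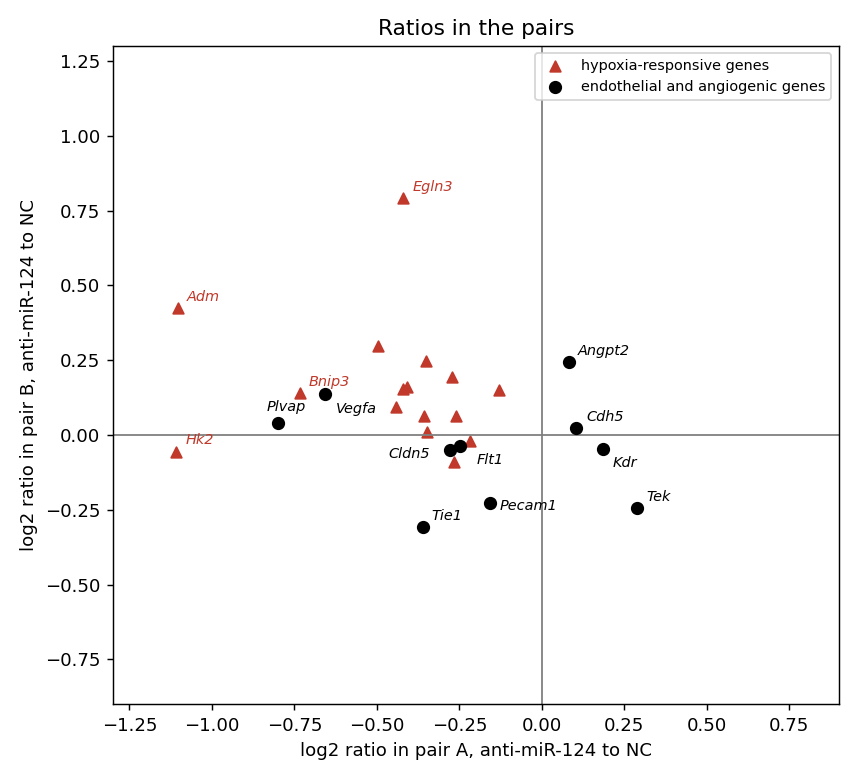
Log2 ratio of anti-miR-124 to NC within pair A (horizontal axis) and within pair B (vertical axis) for the members and for hypoxia-responsive genes, which are marked separately. All 16 hypoxia-responsive genes that were tested lie left of 0, as Vegfa does with -0.66 in pair A, and 13 of the 16 lie above 0 on the vertical axis.

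Hk2, a hexokinase gene, had 999 counts in NC-A, 491 in anti-A, 695 in NC-B and 698 in anti-B. The difference lay in pair A. Its log2 fold change was -0.61 (SE 0.23, unadjusted p = 0.035, adjusted p = 0.989), the single hypoxia-responsive gene with an unadjusted p below 0.05. Its log2 fold change was -0.22 without NC-A and -0.92 without NC-B. With no filter on low counts its adjusted p was 5.15e-07, and with DESeq2 it was 1.000. Bnip3 had 2137, 1362, 1661 and 1909 counts in the same order, and its log2 fold change was -0.31 (SE 0.19, adjusted p = 0.989). The genes of the list with the highest level were Ldha and Eno1, with means of 2480 and 2440 TPM. Ldha had 26067, 22902, 24991 and 29821 counts and a log2 fold change of -0.04 (SE 0.10), and Eno1 had 26357, 23323, 26336 and 28715 counts and a log2 fold change of -0.10 (SE 0.07).

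The wider endothelial genes had a small median change as well, but single genes ran from -0.85 to 0.50 on the log2 scale. Of 24 other pan-endothelial genes, 24 were tested and 0 passed the adjusted test, and 7 had a fitted change above 0 and 17 below 0, with a median log2 fold change of -0.11. At an unadjusted p below 0.05, 1 was higher and 2 were lower, beside 3.91% of all genes tested in either direction. The groups did not overlap for 4 higher and 8 lower genes of the 24, beside 16.5% and 16.8% of all genes tested. Without NC-A the median of the list was -1.5e-05. The 24 genes summed to 336 TPM in NC-A, 351 TPM in anti-A, 356 TPM in NC-B and 400 TPM in anti-B, so that anti-A and anti-B were each above the NC library of the same pair. More than any other gene of the list, Podxl set this sum, and without it the sums were 170, 157, 169 and 165 TPM in the same order, lower in both pairs.

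Adgrl4, an adhesion GPCR of growing vessels, had 279 counts in NC-A, 209 in anti-A, 234 in NC-B and 173 in anti-B. Both anti-miR-124 libraries were below both NC libraries, and its log2 fold change was -0.50 (SE 0.20, unadjusted p = 0.047, adjusted p = 0.989). Sox7, an endothelial transcription factor, had only 41, 19, 34 and 25 counts in the same order, with a log2 fold change of -0.85 (SE 0.34, unadjusted p = 0.042, adjusted p = 0.989). Podxl, a sialomucin of the vessel lumen, went the other way, with 4700, 5416, 5417 and 7118 counts and a log2 fold change of 0.23 (SE 0.10, unadjusted p = 0.048, adjusted p = 0.989). Its mean level was 196 TPM, and podocalyxin is also known from neurons. The next highest of the list was Ramp2, the partner of the adrenomedullin receptor, with a mean of 21.04 TPM, 115, 74, 97 and 112 counts, and a log2 fold change of -0.28 (SE 0.26, adjusted p = 0.989).

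Other ligands and receptors of the VEGF and angiopoietin pathway were tested for 10 of 11 genes, all but Vegfd, and 0 passed the adjusted test. The fitted change was above 0 for 5 and below 0 for 5, with a median log2 fold change of 0.09 (-0.011 with no filter on low counts). Both neuropilins, the co-receptors of VEGF, were higher in both anti-miR-124 libraries. Nrp1 had 652 counts in NC-A, 830 in anti-A, 793 in NC-B and 913 in anti-B, with a log2 fold change of 0.20 (SE 0.08, unadjusted p = 0.042). Nrp2 had 653, 858, 796 and 1028 counts, with a log2 fold change of 0.31 (SE 0.09, unadjusted p = 0.010). Flt4, which encodes VEGFR3, had 121, 90, 123 and 72 counts and a log2 fold change of -0.66 (SE 0.24, unadjusted p = 0.029). The adjusted p was 0.989 for each of Nrp1, Nrp2 and Flt4. Neuropilins are also made by neurons, so their level in whole retina is not one of vessels alone. The ligand gene with the highest level was Vegfb, with a mean of 56.1 TPM and 381, 343, 393 and 442 counts. Its log2 fold change was -0.06 (SE 0.11, adjusted p = 0.989).

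The tip cell and Notch genes, which set which endothelial cell leads a sprout, were tested for 12 of 14 genes, all but Esm1 and Kcne3. None passed the adjusted test by edgeR, 0 had an unadjusted p below 0.05 (3.91% of all genes tested), and the median log2 fold change was -0.02. Dll4, the Notch ligand of tip cells, had 100 counts in NC-A, 99 in anti-A, 144 in NC-B and 125 in anti-B. Its log2 fold change was -0.19 (SE 0.21, adjusted p = 0.989). Notch1 and Cxcr4, which neural cells also make, had the highest levels of the list, with means of 52.2 and 29.7 TPM. Notch1 had a log2 fold change of 0.11 (SE 0.09, adjusted p = 0.989), and Cxcr4 one of -0.03 (SE 0.17, adjusted p = 0.997).

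Norrin signalling and the blood-retina barrier were covered by 14 genes, all 14 of them tested, and 0 passed the adjusted test. The median log2 fold change was -0.03. Mfsd2a, the lipid transporter of barrier endothelium that keeps transcytosis low, had 121 counts in NC-A and 59 in anti-A, and 124 in NC-B and 70 in anti-B. The groups were well apart, at 10.6 TPM in each NC library and 5.24 and 5.71 TPM in the anti-miR-124 libraries. The log2 fold change of Mfsd2a was -1.001 (SE 0.21, unadjusted p = 0.0025), with an adjusted p of 0.989 over all genes tested, so the call was not made. Leaving out any 1 library gave a log2 fold change between -1.07 and -0.94. With no filter on low counts its adjusted p was 0.0178, with limma 0.500 and with DESeq2 0.691. The TPM ratio of Mfsd2a to Cldn5 was 0.251 in NC-A and 0.282 in NC-B, against 0.140 in anti-A and 0.158 in anti-B.

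Slco1c1, a thyroid hormone transporter of barrier endothelium, had 48, 21, 32 and 23 counts, with a log2 fold change of -0.95 (SE 0.37, unadjusted p = 0.041, adjusted p = 0.989). Lrp5, a Norrin co-receptor, had 414, 474, 452 and 617 counts and was the gene of this list that was higher at an unadjusted p below 0.05, with a log2 fold change of 0.25 (SE 0.10, unadjusted p = 0.047, adjusted p = 0.989). The ligand gene Ndp itself had 105 counts in NC-A and in anti-A, 104 in NC-B and 110 in anti-B, with a log2 fold change of -0.03 (SE 0.20, adjusted p = 0.997). Tspan12, which amplifies Norrin signalling, had 267, 251, 280 and 240 counts and a log2 fold change of -0.23 (SE 0.13, adjusted p = 0.989). The highest levels of the list were those of Slc2a1, a glucose transporter gene known from barrier endothelium, with a mean of 328 TPM, and of the amino acid transporter gene Slc7a5, with 90.0 TPM. Cldn5 had a mean of 38.3 TPM, and which cells of the whole retina gave the levels of Slc2a1 and Slc7a5 was not tested. Slc2a1 had 5384 counts in NC-A, 3871 in anti-A, 4099 in NC-B and 5704 in anti-B, so that the pairs went opposite ways, and its log2 fold change was -0.08 (SE 0.20, adjusted p = 0.990). Slc7a5 had 1803, 1566, 1546 and 1936 counts and a log2 fold change of -0.02 (SE 0.13, adjusted p = 0.997).

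Genes of endothelial activation were tested for 6 of 9, without Sele, Selp and Lrg1, and 5 of the 6 had a fitted change above 0, and 0 passed the adjusted test. Their median log2 fold change was 0.41. Pair A alone gave 0.07, pair B alone gave 0.40, and the fit without anti-B gave 0.084. Microglia genes summed to 592 TPM in anti-B and 192 to 244 TPM in the other libraries, and interferon-stimulated genes to 348 TPM in anti-B and 70.0 to 197 TPM in the others. Their part in the activation genes was not tested. Vcam1, a leukocyte adhesion molecule, had 371 counts in NC-A, 583 in anti-A, 562 in NC-B and 795 in anti-B. The anti-miR-124 libraries were both above the NC libraries, with a log2 fold change of 0.49 (SE 0.16, unadjusted p = 0.022, adjusted p = 0.989). With no filter on low counts its adjusted p was 0.000515, and with DESeq2 it was 1.000. Icam1, also a leukocyte adhesion molecule, had 28, 33, 8 and 43 counts in the same order, and its log2 fold change was 0.97 (SE 0.57, adjusted p = 0.989). Ackr1, a chemokine receptor gene known from venules, had the highest level of the list with a mean of 196 TPM, and 1124, 1176, 1348 and 1264 counts. Its log2 fold change was -0.09 (SE 0.07, adjusted p = 0.989). Which cells of the whole retina gave the level of Ackr1 was not tested.

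The size of these differences depended on single libraries. On the log2 scale Slco1c1 ran from -1.28 (without NC-B) to -0.53 (without NC-A). Flt4 ran from -0.91 (without anti-A) to -0.44 (without anti-B), and Adgrl4 from -0.72 (without anti-A) to -0.28 (without NC-A). Sox7 ran from -1.06 (without NC-B) to -0.62 (without NC-A). Among the genes that were higher, Podxl ran from 0.11 (without anti-B) to 0.35 (without anti-A), Lrp5 from 0.14 (without anti-B) to 0.37 (without anti-A) and Nrp1 from 0.14 (without NC-A) to 0.26 (without NC-B). Vcam1 ran from 0.30 (without NC-A) to 0.73 (without NC-B), and Nrp2 from 0.25 (without NC-A) to 0.37 (without NC-B). All of the genes in this paragraph kept their direction.

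**Figure D4:**
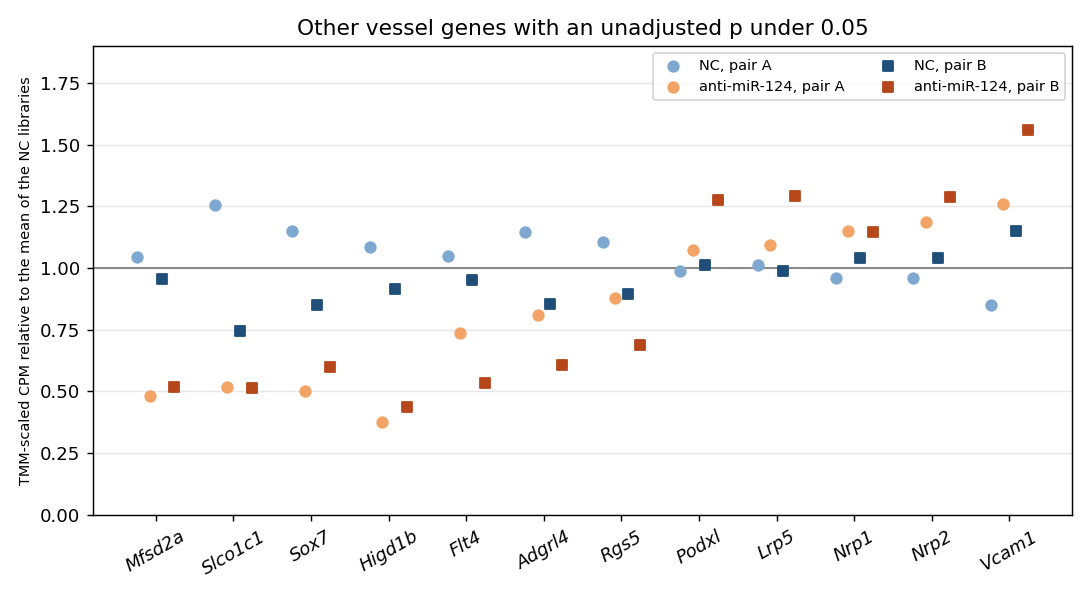
TMM-scaled CPM in the 4 libraries, divided by the mean of the NC libraries, for the genes of the vessel lists with an unadjusted p below 0.05. The libraries of the groups are well apart for Mfsd2a (log2 fold change -1.001) and nearly touch for Rgs5, and none of the genes shown passed the adjusted test, as Mfsd2a with an adjusted p of 0.989.

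Pericytes and smooth muscle cells, which wrap the vessels, were followed with 15 genes, of which 13 were tested and 0 passed the adjusted test. Their median log2 fold change was -0.17, and 0.05 without NC-A. The fitted change was above 0 for 5 and below 0 for 8. The highest was that of Anpep, at 1.92 (SE 0.82, adjusted p = 0.989). Anpep had 21 counts in NC-A, 18 in anti-A, 13 in NC-B and 123 in anti-B. The list summed to 265 TPM in NC-A and to 220, 229 and 224 TPM in anti-A, NC-B and anti-B. Rgs5, a pericyte gene, had 2281, 1919, 2064 and 1657 counts, with a log2 fold change of -0.35 (SE 0.15, unadjusted p = 0.0497, adjusted p = 0.989). Its log2 fold change was -0.54 without anti-A and -0.18 without anti-B. With no filter on low counts its adjusted p was 0.0223, and with DESeq2 it was 1.000. Higd1b, also enriched in pericytes, had only 19, 7, 18 and 9 counts, with a log2 fold change of -1.27 (SE 0.42, unadjusted p = 0.021, adjusted p = 0.989). Pdgfrb, the receptor by which endothelium recruits pericytes, had 206, 172, 198 and 194 counts and a log2 fold change of -0.22 (SE 0.15, adjusted p = 0.989). Ndufa4l2, a pericyte gene that hypoxia also induces, had 432, 306, 318 and 382 counts, a mean of 62.7 TPM and a log2 fold change of -0.21 (SE 0.20, adjusted p = 0.989).

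Markers of other cell types and tissues were summed in each library as well. The 8 erythrocyte genes, 1 of which was at 0 in every library, summed to 405 TPM in NC-A, 1596 in anti-A, 747 in NC-B and 456 in anti-B. The red cell signal was thus higher in anti-A and lower in anti-B than in the NC library of the pair. The 6 astrocyte genes summed to 127, 103, 91.4 and 241 TPM in the order NC-A, anti-A, NC-B and anti-B, and the 15 microglia genes to 244, 228, 192 and 592 TPM. Anti-B was the highest for both lists. The 15 interferon-stimulated genes, some of which endothelium also makes, summed to 70.0 TPM in NC-A and 78.1 in NC-B, against 197 in anti-A and 348 in anti-B. Of these, 14 of 15 were higher at an unadjusted p below 0.05, beside 3.91% of all genes tested in either direction, and 0 passed the adjusted test. The 10 pigment epithelium genes summed to 84.0 TPM in NC-A and 125 in NC-B, against 175 in anti-A and 130 in anti-B. The 19 lens genes summed to 64958 TPM in NC-A and to 131 to 184 TPM in the other libraries. The part of these cells and tissues in the values of the members was not tested.

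**Figure D5:**
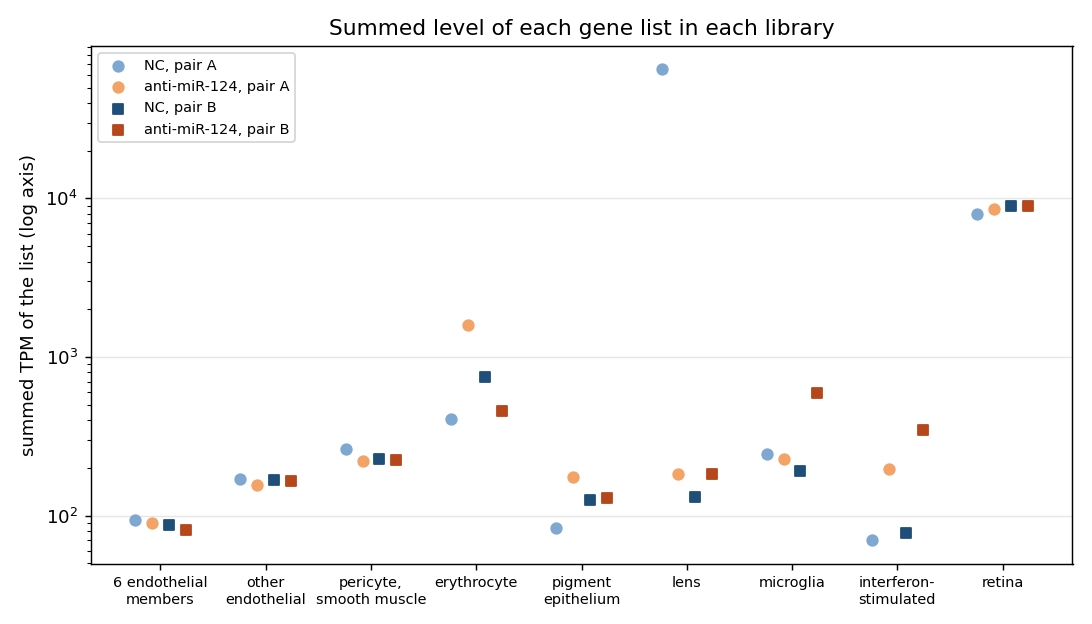
Summed TPM of marker lists in each library (log axis), with endothelial, pericyte, erythrocyte, pigment epithelium, lens, microglia, interferon-stimulated and retina genes side by side and the 4 libraries marked. The 6 endothelial members stay between 81.5 and 94.0 TPM, while erythrocyte genes range from 405 to 1596 TPM and lens genes from 131 to 64958 TPM.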

How the data were processed

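Retinal RNA was sequenced in 4 libraries, 2 per group. The table that the authors deposited holds raw read counts, gene lengths and 4 further columns of RPKM values, which were not used. The submitters' processing notes name HISAT2 and mm9, but all 10 members overlapped RefSeq GRCm38.p6 in position, as did 99.8% of 36837 matched symbols, and positions are given on GRCm38. Columns were assigned to groups by the eye each one names and paired by their shared number.

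TPM were computed from counts and lengths. edgeR 4.0.16 (R 4.3.3) was used with TMM, its filter on low counts, trended dispersion, quasi-likelihood tests of both directions and Benjamini-Hochberg adjustment over 17766 genes, with a threshold of 0.05. Pair ratios used 0.5 added counts. Alternatives were other scalings, filters, DESeq2 1.42.0, limma 3.58.1 on log2(TPM + 0.5), a replicate block and leaving out each library. No libraries were duplicates (chi-square per degree of freedom at least 3.44). On simulated counts of 17440 genes, 67.7% of 2-fold and 90.8% of 4-fold changes were recovered, with 159 calls, 5 of them wrong. The simulation gave every gene the trended dispersion and held no library that stood apart. The real libraries gave 0 calls, so these shares need not hold for them. Counting error is largest for genes with few counts, and is part of the standard errors. The members and gene lists were chosen with earlier results of these data known. Beside the members, the genes named from each list were those with an unadjusted p below 0.05 and the 2 with the highest mean TPM. The lists of cell types other than vessel cells are given by their sums and counts only. Bnip3, Dll4, Ndp, Tspan12, Icam1, Pdgfrb and Anpep were added after their values were seen.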

Additional observations from a re-analysis of the deposited data

How the results depend on the processing

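No member passed the adjusted test under any alternative, the crossed replicate block included, and the 9 alternatives that kept all libraries kept the direction of every member. The smallest adjusted p of a member was 0.440, for Vegfa with no filter. The count of all genes past the threshold was 0 with edgeR as reported, 379 with no filter on low counts, 36 with DESeq2, and 11 with limma on log2 TPM. Leaving out 1 library gave 0 to 256 genes, 256 without anti-A, 57 without NC-B, 12 without anti-B and 0 without NC-A. The library left alone in its group was then assumed to vary like the others. The replicate block (pairs A and B) called 0 genes, and same-numbered libraries had a correlation of -0.16 in their deviations. The crossed replicate block, chosen after seeing the data, called 160. Members lower without overlap numbered 1 as reported, 0 with DESeq2 size factors (16.6% of all genes), 0 without the lens genes (15.4%), 2 by total counts (15.6%), 2 by upper quartile (17.1%) and 3 by TPM (9.27%). Members higher without overlap numbered 2 by total counts (17.0%) and 2 by TPM (20.8%). TPM moved the median log2 ratio of all genes in pair A to 0.10. Leaving out single libraries moved the members' median between -0.29 and -0.018 (without NC-A), Cdh5 between -0.0019 (without anti-A) and 0.13, Kdr between -0.017 (without NC-A) and 0.16, Tek between -0.16 (without anti-A) and 0.20, and Pecam1 between -0.39 and 0.0015 (without anti-B). Tek was also below 0 without NC-A, at -0.06. List medians ranged from -0.084 to 0.11 (tip cell and Notch), -0.16 to 0.076 (Norrin and barrier), -0.14 to -1.5e-05 (pan-endothelial, the latter without NC-A), 0.084 to 0.53 (activation) and -8.66 to 0.51 (lens, positive without NC-A). The cause was not tested. The search for miR-124 seed matches was not run. Plvap had the fewest counts of the members and the widest interval, so depth limits it the most.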
